A study of Caenorhabditis elegans with 3 samples.

Results

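The genes described here are 8 genes of Caenorhabditis elegans that make, load or release neuropeptides, or encode convertases related to those that do: egl-3, egl-21, sbt-1, ida-1, unc-31, aex-5, kpc-1 and bli-4. They were listed by name, and each was read as a locus made of the gene body and 6 kb on each side, against the same windows of all 19973 nuclear protein-coding genes. The data were lists of peaks from chromatin immunoprecipitation followed by sequencing (ChIP-seq) of UNC-55, a nuclear receptor of the COUP-TF family. The single group held 3 biological replicates of whole L2 larvae of mixed sex from strain NC1639, in which the integrated array wdIs49 on chromosome III carries UNC-55a fused to GFP behind the ttr-39 promoter (pttr39) together with dpy-20+. All 3 samples therefore carry the transgene, and no strain without it and no mutant was analysed here. The ttr-39 promoter is active in GABA motor neurons, but the chromatin came from whole animals, so a weak peak cannot be assigned to few cells or to weak binding in many. The labels name eGFP-unc-55 as the target in every sample, and a note on replicate 3 adds a FLAG tag at the C terminus. Peak lists hold no expression values, so the labelled stage and cells could not be checked against marker genes.

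A neuropeptide is made as a precursor that enters the secretory pathway and is cut at pairs of basic residues by a proprotein convertase. A carboxypeptidase then trims the basic residues left at the cut, some peptides are amidated, and the products are stored in dense-core vesicles, which release their load when calcium rises. EGL-3 is the main convertase of worm neurons, EGL-21 is the matching carboxypeptidase E, and SBT-1 is the chaperone that EGL-3 needs to become active. IDA-1 is a phosphatase-like membrane protein of dense-core vesicles, and UNC-31 (CAPS) primes these vesicles for release. AEX-5 is a convertase needed for the signal from intestine to muscle in the defecation cycle, KPC-1 is the furin-like convertase needed for dendrite branching, and BLI-4 cuts cuticle collagens and other secreted proteins.

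UNC-55 peaks lay at the promoters of 6 of these 8 genes. The optimal list, which holds the 5993 peaks that passed the authors' reproducibility threshold, had a summit between 2000 bp upstream and 500 bp downstream of an annotated start of egl-3, egl-21, sbt-1, ida-1, unc-31 and bli-4 (75%), against 25.5% of all protein-coding genes. The strongest was at sbt-1, with a signal value of 424.7 and rank 134 of 5993, followed by egl-3 with 354.7, egl-21 with 283.6 and ida-1 with 277.8. The convertase genes aex-5 and kpc-1 had no optimal summit in this window. The signal value is the authors' own score for a peak and was used here only to order peaks within a list. The sequences 100 bp to each side of the 4 strongest promoter summits, and of the strongest summit inside a gene (an ida-1 intron), are shown 5′ to 3′ on the strand of the gene in ce11 (WBcel235). Capitals mark matches on either strand to the nuclear receptor core AGGTCA, the repeat unit GAGAGA, the hexamer GACGCA or the palindrome TGACGTCA, and the egl-21 stretch stops at the annotated start.
sbt-1 promoter peak, chrV:20828933-20829133, minus strand: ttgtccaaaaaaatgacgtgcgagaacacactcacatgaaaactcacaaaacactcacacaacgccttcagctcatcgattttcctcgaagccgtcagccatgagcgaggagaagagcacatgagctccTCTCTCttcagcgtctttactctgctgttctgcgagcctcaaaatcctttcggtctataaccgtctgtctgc
egl-3 promoter peak, chrV:10174693-10174893, minus strand: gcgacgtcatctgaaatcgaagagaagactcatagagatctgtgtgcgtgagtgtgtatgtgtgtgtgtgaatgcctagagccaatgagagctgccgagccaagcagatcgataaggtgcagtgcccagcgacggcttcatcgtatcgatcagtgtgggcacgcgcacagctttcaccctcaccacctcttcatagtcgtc
egl-21 promoter peak, chrIV:10481845-10481954, minus strand: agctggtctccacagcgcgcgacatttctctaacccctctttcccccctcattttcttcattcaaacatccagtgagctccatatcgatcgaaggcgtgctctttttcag
ida-1 promoter peak, chrIII:5755307-5755507, plus strand: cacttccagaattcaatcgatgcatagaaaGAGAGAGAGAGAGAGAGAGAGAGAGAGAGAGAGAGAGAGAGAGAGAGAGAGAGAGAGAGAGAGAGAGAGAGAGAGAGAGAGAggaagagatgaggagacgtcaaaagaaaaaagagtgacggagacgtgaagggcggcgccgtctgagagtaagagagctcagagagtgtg
ida-1 intron peak, chrIII:5758806-5759006, plus strand: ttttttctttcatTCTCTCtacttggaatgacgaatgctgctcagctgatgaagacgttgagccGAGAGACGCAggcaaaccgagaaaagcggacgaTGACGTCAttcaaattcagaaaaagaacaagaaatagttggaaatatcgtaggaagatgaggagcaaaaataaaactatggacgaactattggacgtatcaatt

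Within the loci of gene body and 6 kb flanks, all 8 genes held at least 1 optimal summit, against 51.5% of all protein-coding genes. The 8 loci held 25 optimal peaks, of which 13 lay upstream of the gene, 5 in a gene body and 7 downstream. All summits over the summed length came to 1.61 per 10 kb for the 8 loci, against 0.613 per 10 kb for the loci of all genes, and the median rate per locus was 1.24 for the 8 genes and 0.453 for all genes. The median locus held 2 summits among the 8 genes and 1 among all genes. By annotation, 17 of the 25 summits were intergenic, 6 intronic, 1 in a coding exon and 1 in a 5′ UTR, and over all optimal peaks 67.7% were intergenic, 25.1% intronic, 1.89% in coding exons and 3.49% in 5′ UTRs. Of the 25 summits, 14 had the named gene as the protein-coding gene of nearest start, and 11 lay nearer to the start of another gene. The same share over the loci of all genes is not given here, so these counts do not set the 8 loci apart. The relaxed pooled list was made from the 3 replicates together without the reproducibility threshold. It held 30000 peaks in all, against 5993 in the optimal list, so most pooled peaks anywhere are not optimal. In the 8 loci it held 99 summits, 74 of them not in the optimal list. In the plot of peaks along the 8 loci, every one of these weaker summits has a lower signal than the optimal peaks. The optimal peaks of these loci had the same rank in both lists, so this order is built in.

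**Figure D1:**
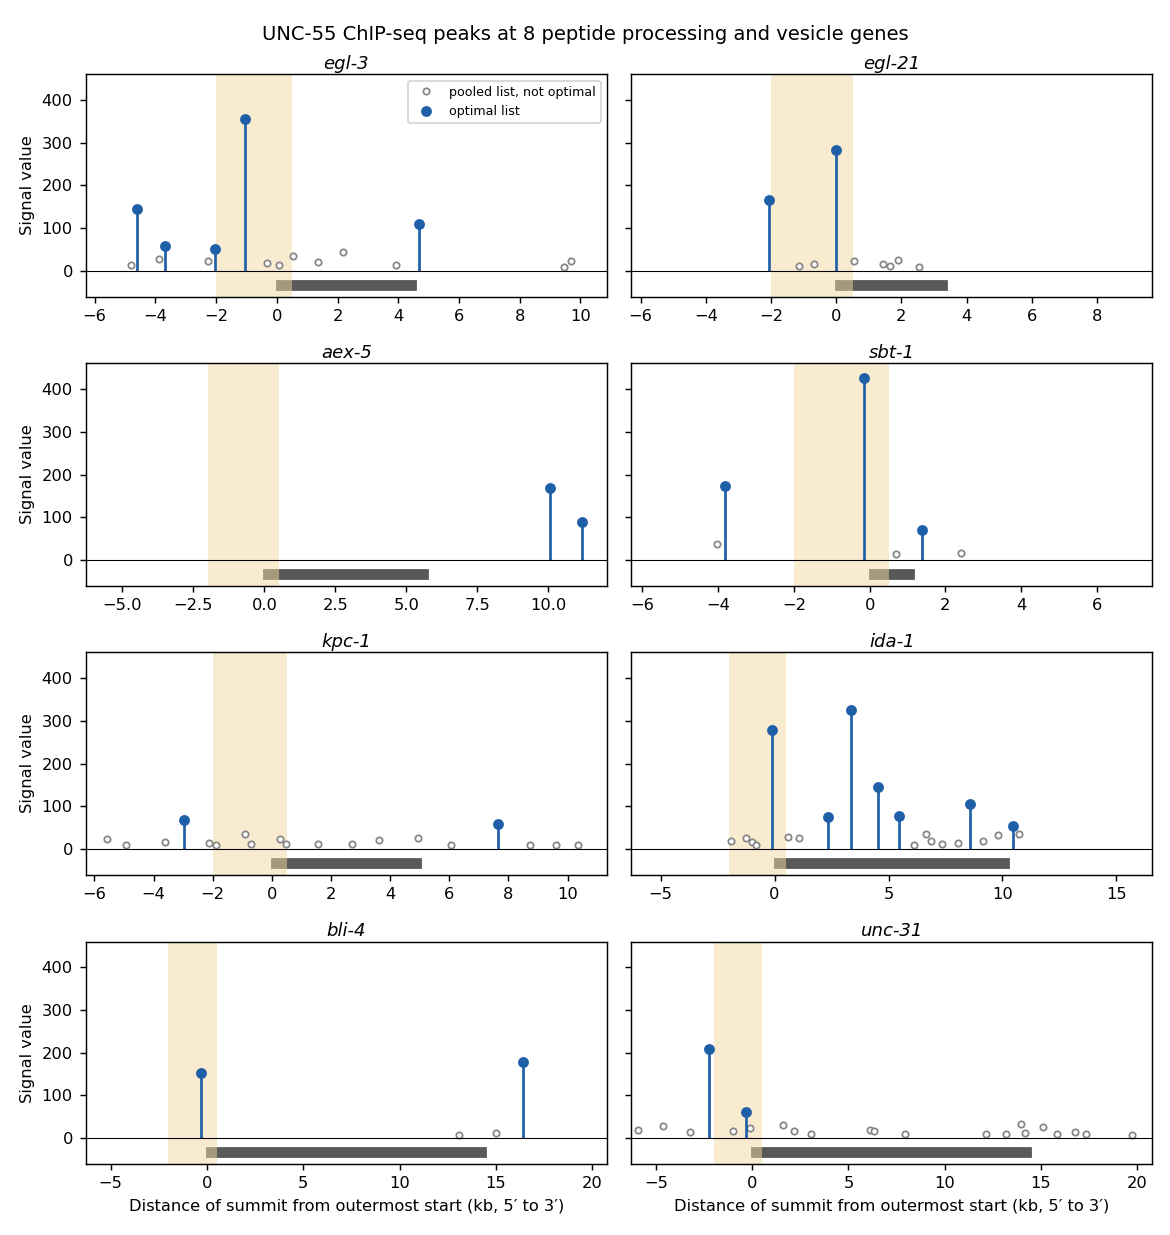
Peaks at the 8 loci, with the distance of the summit from the outermost start of the gene in kb on the horizontal axis and the signal value on the vertical axis. Filled points with stems are optimal peaks, open points are pooled summits that are not in the optimal list, the dark bar is the gene body and the shaded band is the promoter window of the outermost start. The sbt-1, egl-3, egl-21 and ida-1 promoters carry peaks between 277.8 and 424.7, ida-1 has 5 peaks in its body, and the aex-5 window is empty.

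The replicates were compared by rank, since the relation of the signal value to depth is not stated. Replicates 1 and 2 have lists of 30000 peaks and replicate 3 has 25262, with median signals of 10.6, 7.28 and 4.55. The lowest-ranked calls in these lists are weak by construction. Taking from each replicate as many of its strongest peaks as the optimal list holds, 6, 6 and 5 of the 8 genes had a promoter summit in replicates 1, 2 and 3, or 70.8% ± 7.22 (SD, n = 3), against 25.7%, 26.1% and 25.8% of all genes. Of the 25 optimal peaks, 24 had a peak over their summit in every replicate, and 20 had one among the strongest 5993 peaks of each. The exception was the peak 2051 bp upstream of egl-3, where replicate 2 had no peak over the summit, only weak ones overlapping its sides. The plot of ranks shows the 5 with a rank beyond 5993 in a replicate or none at all: 1 at egl-3, 1 in ida-1, 1 at unc-31 and both kpc-1 peaks. The optimal list was itself chosen for reproducibility over these replicates, so the counts of 24 and 20 are partly built in. The same shares over all 5993 optimal peaks are not given here, so these counts do not set the 8 loci apart.

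**Figure D2:**
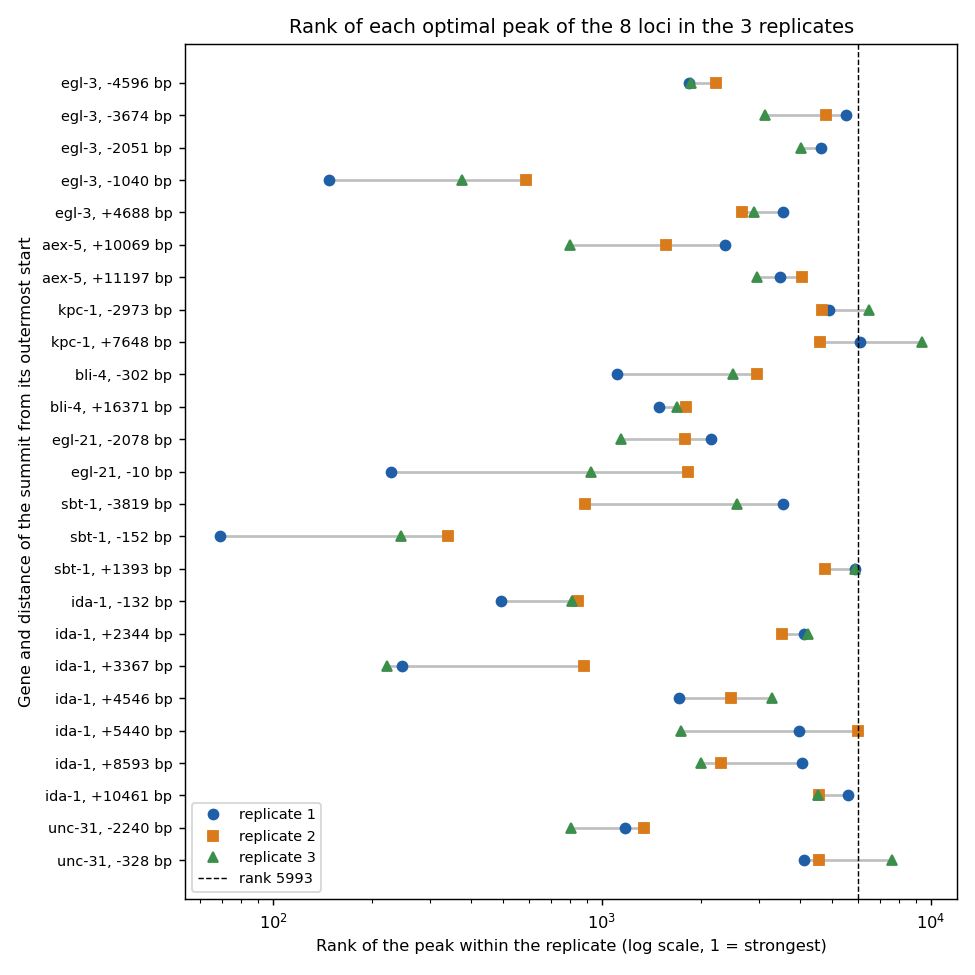
Rank of each of the 25 optimal peaks within the lists of replicates 1, 2 and 3 on a logarithmic axis, where 1 is the strongest, with genes down the page and the summit's distance from the outermost start beside each. The dashed line is rank 5993, and each rank is that of the replicate peak containing the optimal summit. The sbt-1 peak at -152 bp ranks 69, 340 and 244, and the kpc-1 peak at +7648 bp ranks 6097, 4599 and 9438.

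Among the proteins that cut precursors, egl-3 (WBGene00001172, chromosome V, 10169177 to 10173753, minus strand) had 5 optimal peaks, 4 of them upstream. Its promoter peak (10174593 to 10175032) was intergenic, with the summit 1040 bp upstream of the start and a width of 440 bp, against a median width of 322 bp over the optimal list. It ranked 148, 586 and 376 in replicates 1, 2 and 3, with signals there of 217, 89.7 and 54.1. The summit stood at -1021 ± 19.4 bp in the replicates (SD, n = 3). Each replicate summit was taken from the peak containing the optimal summit, which was derived from all 3 replicates. The spread of summits, here and for the genes below, was therefore limited in advance and is no independent measure of agreement. Of the 5094 genes with a promoter peak, 417 had a strongest signal at or above that of egl-3. A second peak, 2051 bp upstream and just outside the window, had a signal of 51.9 and ranked 4640 in replicate 1 and 4026 in replicate 3. The peaks 3674 and 4596 bp upstream, with signals of 58.2 and 144.1, were nearer to the start of cul-5, a cullin gene, at 2108 and 1186 bp. The last peak, 112 bp past the gene end with a signal of 109.5, was nearest to C51E3.6.

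The convertase gene bli-4 (WBGene00000254, chromosome I, 6342224 to 6356680, plus strand) had a promoter peak 302 bp upstream of its outermost start (6341808 to 6342097, intergenic) with a signal of 152.9. It ranked 1113, 2968 and 2497 in the replicates, and 2533 genes had a promoter signal at or above it, close to the middle of the genes with a peak. The stronger peak of this locus lay 1915 bp past the gene end, with a signal of 178.1, in the 5′ UTR of K04F10.3 and 10 bp from its start. At kpc-1 (WBGene00002232, chromosome I, 11675941 to 11680975, plus strand) both optimal peaks lay outside the promoter window. The first, 2973 bp upstream (11672800 to 11673135), had a signal of 68.9 and ranked 4910, 4660 and 6503 in the replicates. The second, 2614 bp past the gene end with a signal of 58.9, was nearest to the scramblase gene scrm-4. The strongest kpc-1 promoter call of the pooled list was not in the optimal list. It lay 911 bp upstream with a signal of 35.9 and rank 7130 of 30000, and ranked 10319, 8142 and 13851 in the replicates. The lowest signal in the optimal list was 45.8, so this call fell below the authors' threshold. At aex-5 (WBGene00000088, chromosome I, 14850052 to 14855827, minus strand) both optimal peaks lay on the far side of the gene, 4294 and 5422 bp past its end, with signals of 168.8 and 87.8. Both were nearest to maph-1.1, a gene for a microtubule-associated protein, 718 and 1846 bp upstream of its start, and aex-5 had no other pooled summit within 6 kb. On the whole pooled list 7 of the 8 genes had a promoter summit, all except aex-5, against 43.2% of all genes.

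The trimming enzyme gene egl-21 (WBGene00001189, chromosome IV, 10478442 to 10481844, minus strand) had its peak (10481704 to 10482048) over the start itself, with the summit 10 bp upstream. It ranked 229, 1826 and 924 in replicates 1, 2 and 3, with signals of 194.5, 53.9 and 39.2. Its highest rank number was 7.97 times the lowest, against 3.96 times for egl-3. The summit lay at -14.7 ± 11.9 bp over the replicates (SD, n = 3). The other optimal peak of the locus, 2078 bp upstream with a signal of 165.5, lay 188 bp upstream of ced-5, a gene of cell corpse engulfment. For the chaperone gene sbt-1 (WBGene00011392, chromosome V, 20827715 to 20828881, minus strand), the promoter peak (20828867 to 20829265) had its summit 152 bp upstream and ranked 69, 340 and 244 in the replicates, with signals of 264.4, 105.6 and 61.6. The summit stood at -153 ± 11.5 bp (SD, n = 3), and 226 of the 5094 genes with a promoter peak had a signal at or above it. The same summit also lay in the promoter window of num-1, the Numb gene, so the peak list does not say which of these genes it serves. A second peak 3819 bp upstream, with a signal of 172.7, lay in a num-1 intron 189 bp past a num-1 start and ranked 3555, 889 and 2581. The replicate 1 rank is that of a peak that covers the optimal summit only at its edge. A stronger replicate 1 peak, with its summit at 20832663, ended at 20832692, just short of the optimal summit at 20832700, and ranked 2000. The third optimal peak of the sbt-1 locus, 227 bp past the gene end in a coding exon with a signal of 70.5, ranked 5876, 4775 and 5901.

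Of the genes for vesicle membrane and release proteins, ida-1 (WBGene00002048, chromosome III, 5755539 to 5765816, plus strand) had the most optimal peaks of the 8 loci, with 7. Its promoter peak (5755274 to 5755585) had the summit 132 bp upstream and ranked 492, 845 and 811, with signals of 155.5, 77.5 and 41.2. In the replicates this summit lay at -144 ± 51.2 bp (SD, n = 3). An intron peak 3367 bp past the start (5758632 to 5759112) was stronger than the promoter peak, at 325.1, and ranked 246, 884 and 222. The other 4 intron peaks, 2344, 4546, 5440 and 8593 bp past the start, had signals of 74.1, 145.2, 77.9 and 105.9. A weak peak with a signal of 53.4 lay 184 bp past the gene end. Of all protein-coding genes, 6.81% had any optimal summit in the body and 35 had at least 5 there, ida-1 included. Among the 811 genes of 0.8 to 1.2 times the ida-1 length, 6 had at least 5, and the median was 0. The wdIs49 array is also on chromosome III, but its position is not given in the labels and the part of the array in these peaks was not tested.

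The priming factor gene unc-31 (WBGene00006767, chromosome IV, 12773867 to 12788354, plus strand) had the weakest promoter peak of the 6. Its summit lay 328 bp upstream (12773371 to 12773706), with a signal of 62.2, and ranked 4127, 4589 and 7621 in the replicates, so it was not among the strongest 5993 of replicate 3. The signal exceeded or equalled that of unc-31 at 4594 of the 5094 genes with a promoter peak. The summit stood at -302 ± 67.9 bp (SD, n = 3). A stronger optimal peak (12771445 to 12771793) lay 2240 bp upstream of the same start, outside the promoter window, with a signal of 207.7. It ranked 1175, 1342 and 803, and unc-31 was the gene of nearest start. The body of unc-31 held no optimal peak, but the locus held 20 pooled summits that were not in the optimal list, the most of the 8, with signals up to 32.6. It was also the longest locus, at 26488 bp, and per length kpc-1 held more, with 17 in 17035 bp. The replicates listed 23, 17 and 8 peaks in the unc-31 locus.

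The strongest promoter peaks of the 6 genes had a median signal of 280.7, against 152.5 for all genes with a promoter peak. The plot of promoter signals shows 4 of them between 277.8 and 424.7 and unc-31 near the lower end. Taking the strongest peak anywhere in the locus, the median was 245.6 for the 8 genes and 164.7 for all genes with one. Genes with several starts have wider windows, and 4 of the 8 had more than 1. Peaks lay at 3 of the 4 genes with 1 start, against 20.9% of all such genes, and at 3 of the 4 with 2 or more, against 37.6%. By the 3 replicate ranks of the strongest promoter peak, the gene most like egl-3 was cec-5, with ranks of 177, 602 and 365 in the replicates. For sbt-1 it was mtm-3, with 78, 271 and 203, and for ida-1 it was C09D4.4, with 550, 945 and 815. Those most like egl-21, bli-4 and unc-31 were Y34D9A.8, unc-44 and F18A1.7, at distances of 0.127, 0.0566 and 0.0401 in log10 rank.

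**Figure D3:**
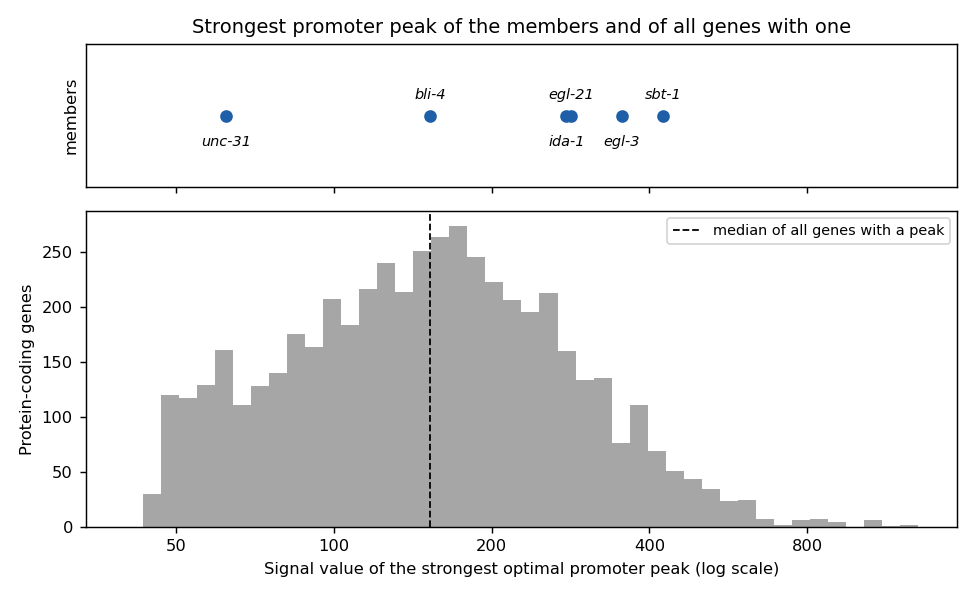
Signal value of the strongest optimal promoter peak on a logarithmic axis, for the 6 genes with one (points, upper panel) and for all 5094 protein-coding genes with one (histogram of gene counts, lower panel, with the median dashed). The points for sbt-1, egl-3, egl-21 and ida-1 lie to the right of the median of 152.5, bli-4 lies at it and unc-31 well to the left.

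Other genes of the pathway fell on both sides of the background of 25.5%. Of 13 genes of vesicle formation, sorting and transport, 10 had an optimal promoter summit, and 84.6% ± 0 did so in the replicates (SD, n = 3). The strongest were unc-108, the RAB-2 GTPase of vesicle maturation, with a signal of 502, then vps-51, the kinesin gene unc-104 and rund-1 with 276, 212 and 206, and those without were eipr-1, hid-1 and vps-53. Of 12 genes of release, 9 had one (75.0% ± 8.33 in the replicates, SD, n = 3), led by the syntaxin gene unc-64 with a signal of 251, ric-7 with 231, the synaptobrevin gene snb-1 with 209 and unc-18 with 194.5. The 3 without were aex-1, aex-4 and aex-6, while aex-3 had one with a signal of 180.7 and cab-1 one with 120.0. Of 5 genes of peptide modification, 2 had one, namely the amidating enzyme genes pghm-1 (signal 217.6) and pgal-1 (127.4), but not pamn-1, cpd-1 or cpd-2. The release gene snb-1 had the same strongest promoter signal as the gene syx-18, so the same peak may lie in both windows. Sharing of peaks at the other genes of these lists is not given here.

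For the genes of the peptides themselves the shares were 9.68%, 8.45% and 5.13% in the flp, nlp and insulin families, as the plot of shares shows beside the 75% of the 8 genes. On the relaxed pooled list the counts were higher, with a promoter summit at 14 of 31 flp genes (45.2%), 38 of 71 nlp genes (53.5%) and 8 of 39 insulin genes (20.5%), against 43.2% of all genes. Optimal summits lay at 3 of 31 flp genes, which encode FMRFamide-like peptides, namely flp-23, flp-16 and flp-20 with signals of 134.8, 124.9 and 121.9. The flp-20 peak ranked 1415, 4252 and 13902 in the replicates. The nlp family of other neuropeptides had 6 of 71, led by nlp-71 with 217.1, nlp-12 with 188.1, nlp-4 with 183.2 and nlp-76 with 137.6. The insulin family, ins genes and daf-28, had 2 of 39, a strong peak at ins-39 (signal 499, rank 68) and a weak one at ins-36 (52.4). The replicate shares were 11.8% ± 1.86 for flp, 7.98% ± 0.813 for nlp and 2.56% ± 0 for insulin genes (SD, n = 3 each).

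**Figure D4:**
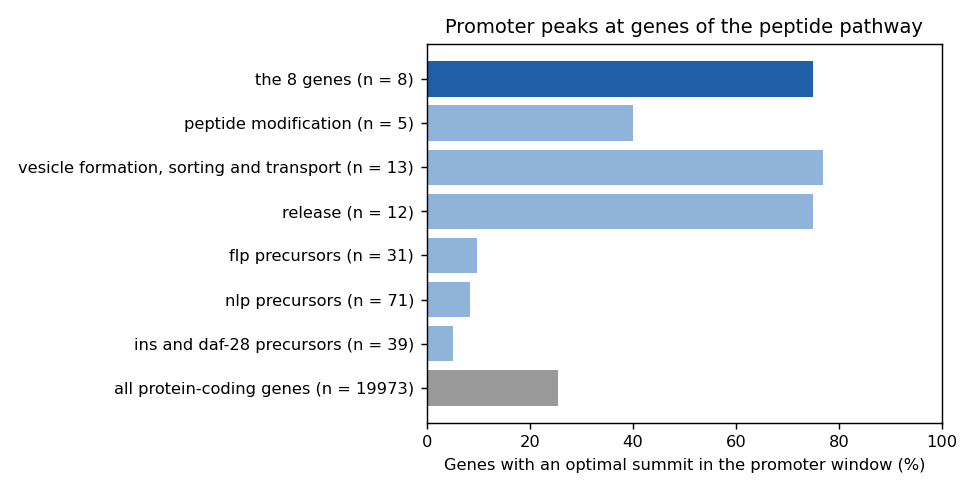
Share of genes, in percent, with an optimal summit in the promoter window, for the 8 genes (75%), for 6 other lists of the pathway and, at the bottom, for all 19973 protein-coding genes (25.5%). The bars for vesicle transport and release reach 76.9% and 75%, and those for flp, nlp and insulin genes 9.68%, 8.45% and 5.13%.

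The sequences under the peaks were searched on both strands for AGGTCA, the core bound by many nuclear receptors. It lay within 50 bp of 1 of the 25 summits (4%), the weak egl-3 peak 2051 bp upstream, and of 1.37% of all 5993 optimal summits. In windows centred 300 bp to the left and to the right it lay at 0 of the 25, and at 2.45% and 2.82% of all. Over all optimal peaks the core was therefore rarer at the summits than beside them. No direct repeat of this core with 0 to 5 bases between copies lay within 100 bp of any of the 5993 summits. GAGAGA lay within 50 bp of 8 of the 25 summits (32%) and of 26.9% of all, and GACGCA near 2 (8%) and 14.8% of all. In the flanking windows GAGAGA lay at 2 of the 25 on each side (8%), and at 6.49% and 6.57% of all. GACGCA lay there at 0 of the 25, and at 1.72% and 2.22% of all. The ida-1 promoter summit of the optimal list, at 5755407, lay inside an unbroken run of 41 GA units, 82 bp long. The run spans 5755337 to 5755418 on chromosome III and ends 121 bp before the annotated start. The summits of replicates 1, 2 and 3, at 5755421, 5755428 and 5755336, lay just outside this run. Only 2 of the 5993 optimal peaks, the ida-1 promoter peak included, had a GA or TC run of that length within 100 bp of the summit. How reads map to such a repeat was not tested. Median GC content within 50 bp of the summit was 41.6% for the 25 peaks and 43.6% for all.

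Another motif was picked after the printed sequences had been read, so its count is a description alone. TGACGTCA, the palindromic cAMP response element bound by bZIP factors, lay within 50 bp of 4 of the 25 summits (16%) and of 1.10% of all optimal summits. In windows centred 300 bp to the left and to the right it lay at 1 of the 25 on each side (4%), and at 0.534% and 0.367% of all. The 4 peaks were the strongest intron peak of ida-1, the ida-1 intron peak 8593 bp past the start, the egl-3 peak 3674 bp upstream and the kpc-1 peak past the gene end, with signals of 325.1, 105.9, 58.2 and 58.9. None lay in the promoter window of the gene whose locus held it. The kpc-1 peak lay 1148 bp upstream of the start of scrm-4, within the promoter distance of that gene. The strong ida-1 intron peak also held GAGAGA next to an overlapping match of the hexamer GACGCA. The sequences of 3 other peaks with AGGTCA or the palindrome near the summit, and of the unc-31 peak 2240 bp upstream, which held none of the 4 motifs within 50 bp, are given below on the strand of the gene, with all motif matches in capitals.
ida-1 last intron peak, chrIII:5764032-5764232, plus strand: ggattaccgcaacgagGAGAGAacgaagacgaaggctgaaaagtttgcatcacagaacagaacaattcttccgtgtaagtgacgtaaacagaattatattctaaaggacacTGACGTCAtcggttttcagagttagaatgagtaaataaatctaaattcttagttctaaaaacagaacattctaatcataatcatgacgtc
egl-3 distal peak, chrV:10177327-10177527, minus strand: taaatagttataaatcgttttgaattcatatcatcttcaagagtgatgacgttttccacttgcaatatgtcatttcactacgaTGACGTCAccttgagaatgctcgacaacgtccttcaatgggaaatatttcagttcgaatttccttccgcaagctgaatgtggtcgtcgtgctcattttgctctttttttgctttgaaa
egl-3 peak outside the window, chrV:10175704-10175904, minus strand: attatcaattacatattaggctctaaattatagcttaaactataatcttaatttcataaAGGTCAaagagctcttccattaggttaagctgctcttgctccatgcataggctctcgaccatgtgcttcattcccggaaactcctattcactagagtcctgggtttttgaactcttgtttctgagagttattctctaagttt
unc-31 upstream peak, chrIV:12771527-12771727, plus strand: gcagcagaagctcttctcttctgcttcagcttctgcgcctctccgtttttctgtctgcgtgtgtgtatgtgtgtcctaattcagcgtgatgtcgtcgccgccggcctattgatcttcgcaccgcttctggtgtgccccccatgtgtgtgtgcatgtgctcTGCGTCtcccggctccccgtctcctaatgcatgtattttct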

How the data were processed

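Peak lists in ce11 from 3 biological replicates of UNC-55 ChIP-seq were used. Per the notes deposited with the files, each replicate list and the pooled list are relaxed calls against 1 control alignment, and the optimal list holds the peaks passing the authors' reproducibility threshold. Which caller and aligner made them is not given in the sources used here. Signal values as deposited were used to rank and filter peaks within a list. The deposited −log10 q-value reached its highest value at every optimal peak and was not used to order them. Summits were taken from the deposited summit offset, an additional field of the lists. Without read counts the depth per sample is unknown, so no interval was computed. The control reads and the ce10 lists were not analysed here.

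Gene positions came from Ensembl release 115 (WBcel235) and sequence from RefSeq. Summits were assigned with Python 3.11.15, pandas 2.3.3 and numpy 2.4.6, after the assignment was tested on simulated peaks. A summit counted as promoter when it lay up to 2000 bp before or 500 bp after any start of a protein-coding gene. A replicate's rank is that of its peak containing the optimal summit. There is 1 group, so no contrast was tested and no p-value is given.

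The 8 genes, the other lists and the motifs were chosen with earlier results of these data known. Named genes are all 8, up to 4 genes of highest promoter signal per other list, the gene of nearest start for each peak, and, per promoter peak, the gene with the closest replicate ranks (Euclidean distance in log10 rank). Genes without a promoter peak, and aex-3, cab-1 and syx-18, are named besides, chosen after their values were seen. No source says whether the replicates were separate cultures.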

Additional observations from a re-analysis of the deposited data

How the results depend on the processing

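The count of genes with a promoter summit stayed between 5 and 7 of 8, and that of loci with a summit between 6 and 8, under every alternative tried. With a narrow window, 1000 bp before to 200 bp after a start, 5 genes kept one, since the egl-3 summit lies 1040 bp upstream. The 25 summits at the loci became 14 among the 2996 strongest optimal peaks and 99 in the whole pooled list. They became 15 with 2 kb on each side, and 14 where the gene had the nearest start. With 1 replicate set aside, optimal peaks were kept if they were among the strongest peaks of both other replicates, which left 20 to 22. As many strongest peaks were taken per replicate as the optimal list holds. This filter can only remove peaks from a list made with all 3 replicates, so it cannot show how the calls depend on a replicate. The median strongest signal of 245.6 became 283.6 among the 2996 strongest optimal peaks, where 1 gene dropped out. It was 245.6 to 283.6 under the filter with 1 replicate set aside. The 32 genes of the other lists became 86 with the pooled list and 19 with the narrow window. The median summit distance of -227 bp became -171 bp with the summits of replicate 2, and the cause was not tested. The median of the geometric mean ranks, 712, became 3633 when a replicate peak had to cover 50% of the optimal peak, because replicate peaks are narrower there and only 2 of the 6 genes, the weaker ones, kept a rank in all 3. AGGTCA went with 1 summit, and with 0 in the flanking windows and at the summits of replicates 2 and 3. Over all optimal peaks it was more common in the flanking windows than at the summits. TGACGTCA, added after seeing the data, lay near 4 summits within 100 bp, and near 1, 4 and 3 of the summits of replicates 1, 2 and 3. No paired analysis was possible because there is 1 group. Read depth is unknown, so a missing peak, as at aex-5, is no measure of absent binding.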
